A study of Homo sapiens with 6 samples.

Results

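Genes of the eukaryotic translation initiation factors were compared between NB4 cells treated with arsenic trioxide (ATO) and control NB4 cells. The genes were taken by name from the deposited expression table. Of 87 rows whose symbol starts with EIF and a digit between 1 and 6, 33 were left out for a P followed by digits at the end of the symbol, which marks pseudogenes but also takes out the 3 genes of the eIF4E-binding proteins. A further 3 rows with a dash and the 4 eIF2 kinase genes (EIF2AK1 to EIF2AK4) were left out. This left 47 genes of 23858 listed, all protein-coding in the annotation. NB4 is an established cell line of human acute promyelocytic leukaemia, whose cells make a PML-RARA fusion protein. Arsenic trioxide causes the fusion protein to be degraded. The ATO group holds 3 libraries of NB4 cells given the drug for 6 h, and the control group holds 3 libraries of NB4 cells labelled as controls. The sources used here state no dose. All libraries come from this single line, so nothing here speaks to other leukaemia cells.

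Translation initiation brings a ribosome to the start codon of a messenger RNA. The factor eIF2 carries the initiator tRNA to the small ribosomal subunit and is recharged with GTP by eIF2B, while eIF3 holds the subunit in a state ready to bind mRNA. The cap-binding complex eIF4F, made of eIF4E, eIF4G and the helicase eIF4A, recruits the mRNA, after which eIF1, eIF1A and eIF5 control which codon is accepted as the start and eIF5B joins the large subunit. Phosphorylation of eIF2 turns it into an inhibitor of eIF2B, the switch of the integrated stress response, and eIF4E and eIF4G are among the best known growth-linked factors in leukaemia. Only RNA was measured here, so neither protein amount nor phosphorylation is known.

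Expression was deposited as RPKM, reads per kilobase of exon, scaled to the reads counted in genes. The library totals recovered from these values were 21185966 to 22300255 reads in the ATO group and 19361333 to 22609019 reads in the control group. Within these, a tested initiation factor gene had at least 262 reads in every library. On the second principal component of all tested genes, ATO replicate 3 (23.0) and control replicate 1 (21.3) lay away from the remaining libraries (-14.8 to -6.85). The sources used here do not state separate cultures, so the p-values reflect only how far these samples spread, which may be technical. Of the promyelocyte markers, 5 of 6 were listed, with a summed level of 666 to 1006 RPKM in ATO libraries and 998 to 1389 RPKM in control libraries. AZU1, a granule protein gene, was the only one of these called, at 25.1 ± 2.98 RPKM after ATO and 50.5 ± 6.80 RPKM in controls (SD, n = 3 each; log2 fold change -0.98 ± 0.12 SE, by limma-trend, adjusted p = 0.00258). MPO, CD33, CTSG and PRTN3 were not called (log2 fold changes -0.81 to -0.22, adjusted p 0.0577 to 0.332). Of the markers of other cell types, 0 of 3 fibroblast, 1 of 5 erythroid, 1 of 3 T cell, 2 of 3 B cell and 1 of 3 epithelial genes were listed, and their summed levels stayed under 7 RPKM in each library. The part of the promyelocyte markers in the results below was not tested. In these bulk libraries, fewer cells of a type and less RNA per cell cannot be told apart.

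After 6 h of ATO the initiation factor genes shifted in both directions and by small amounts. The start-site factors EIF1 and EIF5 were higher, the cap-binding factors EIF4E and EIF4G1 were lower, and every subunit of eIF2B had a lower mean. Of the 44 genes that averaged 1 RPKM or more, the level required for a test, 6 were called higher and 11 lower by limma-trend on log2 of RPKM + 1 (Benjamini-Hochberg adjusted p under 0.05 over all genes tested). Together these 17 genes are 38.6% of those tested, where 25.4% of all 16803 tested genes were called. Split by direction, 13.6% of the tested initiation factor genes were called higher and 25% lower, against 12.0% and 13.4% of all tested genes. The background was higher in more comparable genes: among protein-coding genes 31.0% were called. With the test restricted to genes of at least 5 RPKM, 36.2% of all genes and 46.5% of 43 initiation factor genes were called. The initiation factor genes had a median mean level of 37.4 RPKM, and all tested genes had one of 5.72 RPKM.

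The changes were small. None of the 44 tested genes (0) was called with a change of at least 2-fold, which 3.59% of all tested genes were. At that share few of 44 genes would be called so, and the 0 says little. The median size of the log2 fold change, whatever its sign, was 0.17 for the initiation factor genes and 0.25 for all tested genes, and their median standard errors were 0.072 and 0.13. These sizes are not matched for level, since the median mean levels were 37.4 and 5.72 RPKM. In 26 of the 44 tested genes (59.1%) the 3 ATO libraries all lay on one side of the 3 control libraries, compared with 44.6% of all genes. Summed over all 47 genes, the level was 2306, 2365 and 2287 RPKM in ATO replicates 1, 2 and 3 and 2368, 2314 and 2352 RPKM in control replicates 1, 2 and 3. These sums overlap between the groups, and their means differ by less than the spread within the ATO libraries.

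**Figure D1:**
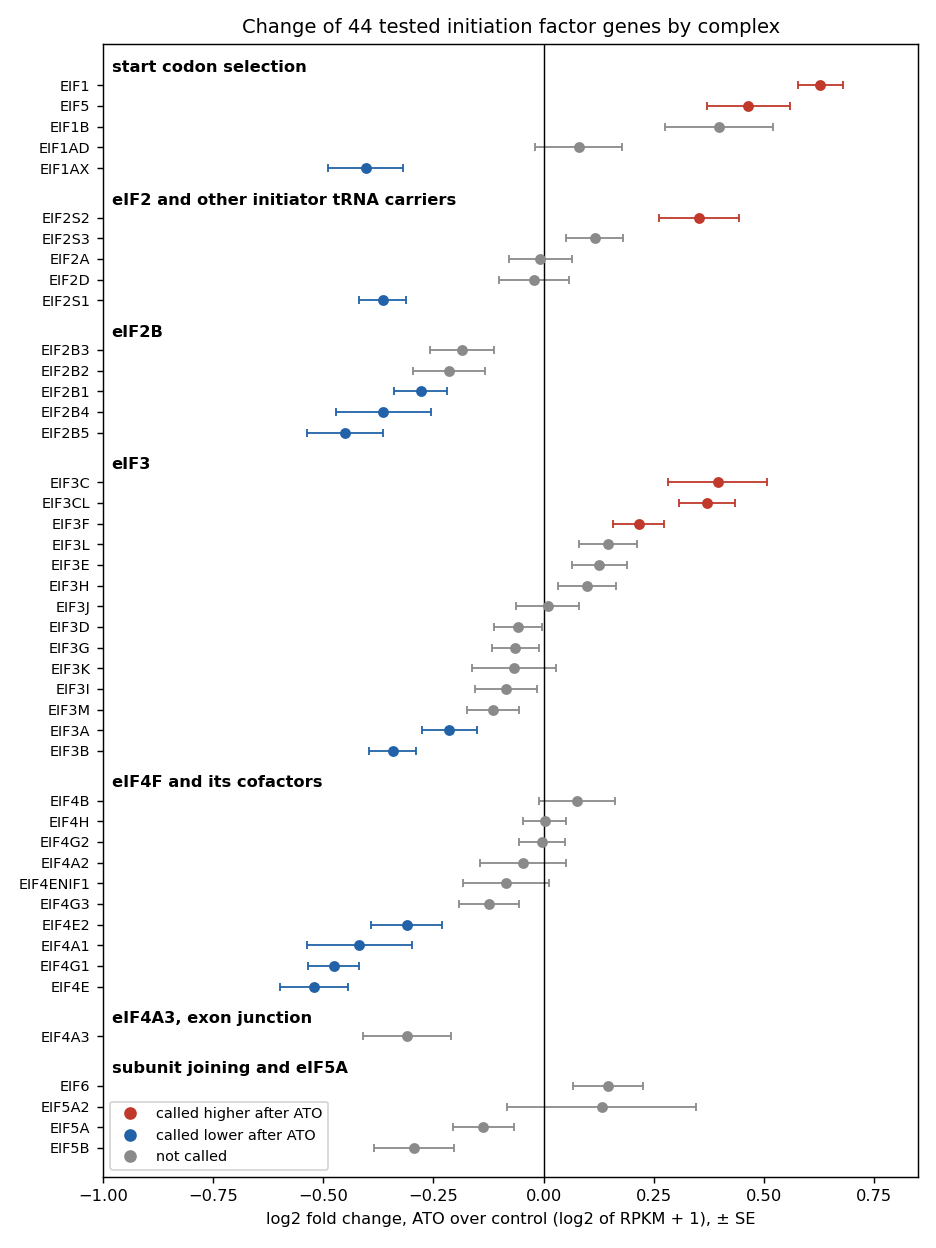
Log2 fold change of each tested gene, ATO over control, on the scale of log2 of RPKM + 1 (x axis), with the genes grouped by factor complex (rows). Points are fitted values with their standard errors, and colours mark genes called higher, called lower or not called. All 5 eIF2B genes lie below 0, and EIF1 has the highest value at 0.63.

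**Figure D2:**
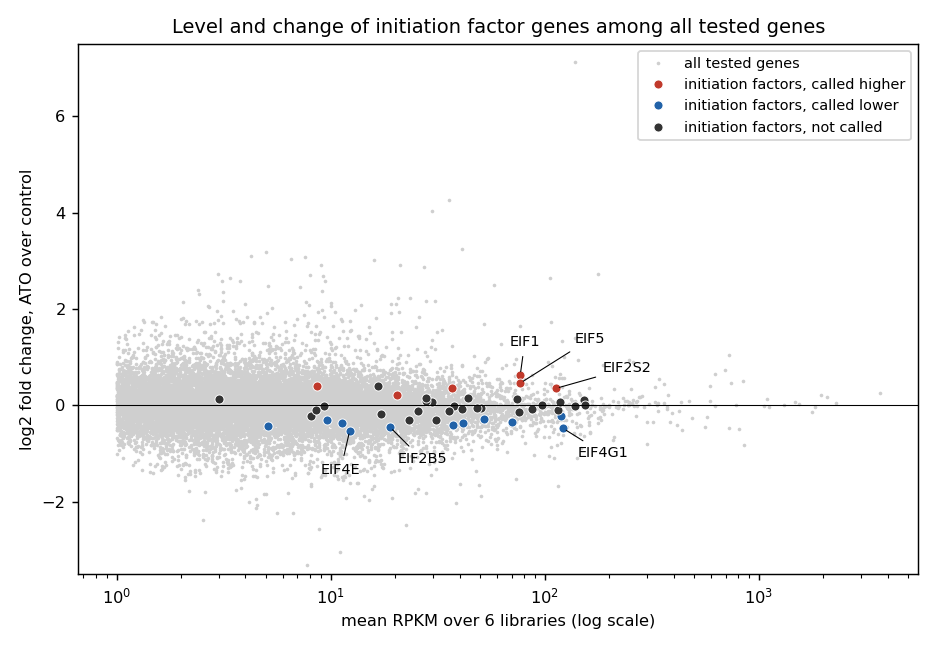
Log2 fold change, ATO over control (y axis), against the mean RPKM over the 6 libraries on a log scale (x axis). Grey points are all 16803 tested genes and coloured points the 44 tested initiation factor genes, which lie between -0.52 and 0.63.

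Calls of 7 of the 17 genes held under each of the 15 other settings tried, which include leaving out each library in turn. These were EIF1 and EIF5, which rose, and EIF2S1, EIF2B5, EIF3B, EIF4E and EIF4G1, which fell. The other 10 lost their call under at least 1 setting. Leaving out single libraries gave 4 higher and 8 lower calls without ATO replicate 1, 3 and 7 without ATO replicate 2, and 3 and 9 without ATO replicate 3. The counts were 3 and 7 without control replicate 1, 3 and 6 without control replicate 2, and 4 and 5 without control replicate 3. Without the pair of libraries that stood apart (ATO replicate 3 and control replicate 1), 3 genes were called higher and 5 lower, namely the 7 genes above and EIF1B. With all 6 libraries, 2021 of all tested genes were called higher and 2252 lower. Both of these counts were also smaller in each fit with libraries left out, as given in the last section.

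The factors that choose the start codon included the clearest rise. EIF1 (chromosome 17, 41688885 to 41692668, GRCh38), which keeps the scanning ribosome from accepting a wrong start codon, stood at 95.1, 92.9 and 92.6 RPKM in ATO replicates 1, 2 and 3 and at 62.3, 57.9 and 60.4 RPKM in control replicates 1, 2 and 3. All ATO libraries lay well above all control libraries. The group means were 93.5 ± 1.38 RPKM after ATO and 60.2 ± 2.20 RPKM in controls (SD, n = 3 each), a 1.55-fold ratio (log2 fold change 0.63 ± 0.05 SE, by limma-trend, adjusted p = 0.000657). EIF5 (chromosome 14, 103333544 to 103345025), which makes eIF2 hydrolyse its GTP at the start codon and opposes eIF1, stood at 85.6, 86.9 and 95.0 RPKM in ATO libraries and at 73.7, 58.4 and 61.7 RPKM in control libraries. Control replicate 1 was the closest of the controls, and the groups did not overlap. The ratio of means was 1.38 (log2 fold change 0.46 ± 0.09 SE, adjusted p = 0.0135).

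EIF1AX (chromosome X, 20124518 to 20141844), the gene of eIF1A, which works with eIF1 in scanning, moved the other way. It stood at 29.3, 35.9 and 31.0 RPKM after ATO and at 40.3, 44.2 and 43.5 RPKM in controls, without overlap. The log2 fold change was -0.40 ± 0.08 SE (by limma-trend, adjusted p = 0.0149), and the call was lost without control replicate 2 (0.0528) or 3 (0.0507). EIF1B, a close paralog of EIF1, had 19.7, 20.4 and 17.2 RPKM in ATO libraries and 11.8, 15.9 and 15.3 RPKM in control libraries. These groups did not overlap either, but the test was missed (0.40 ± 0.12 SE, adjusted p = 0.0535). EIF1AD, an eIF1A-like gene, averaged 30.5 ± 2.93 RPKM after ATO and 28.9 ± 3.17 RPKM in controls (SD, n = 3 each; 0.079 ± 0.099 SE, adjusted p = 0.596).

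EIF1 and EIF1B share a sequence feature at their own start codon, shown here because eIF1 is known to be sensitive to it. A favourable context has a purine at position -3 and G at position +4, counted from the A of the start codon as +1. In the principal coding transcript of GENCODE release 29, the 12 bases before the start codon, the codon itself and the 6 bases after it read as follows, with position -3, the start codon and position +4 in capitals:
EIF1: gaatcgtatCgtATGTccgct
EIF1B: cactagtatCgcATGTccact
EIF3B: agcgttgggCccATGCaggac
EIF1AX: gccgccaccGccATGCccaag
EIF5: taataagccAaaATGTctgtc
Of 46 initiation factor genes with such a context, EIF1, EIF1B and EIF3B were the 3 with neither favourable base (6.52%), where 6.67% of 12978 listed genes had neither. Both bases were present in 22 of the 46 (47.8%) and in 45.1% of the listed genes. EIF1AX and EIF5 have the purine and lack the G. EIF1 and EIF1B are 82.2% identical over 342 coding bases.

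Among the subunits of eIF2, the gene of the alpha subunit was lower, that of the beta subunit higher, and that of the gamma subunit was not called. EIF2S1 (chromosome 14, 67359997 to 67386516) encodes the alpha subunit, whose phosphorylation starts the integrated stress response. It stood at 36.0, 37.2 and 35.9 RPKM in ATO libraries and at 48.2, 44.8 and 48.4 RPKM in control libraries. The groups were far apart for their spread (36.3 ± 0.742 RPKM after ATO and 47.1 ± 2.05 RPKM in controls, SD, n = 3 each; log2 fold change -0.37 ± 0.05 SE, by limma-trend, adjusted p = 0.00459). EIF2S2 (chromosome 20, 34088298 to 34112332), the beta subunit that binds eIF5 and eIF2B, stood at 118, 141 and 121 RPKM after ATO and at 91.5, 97.2 and 108 RPKM in controls. ATO replicate 2 was the highest library, and the groups did not overlap (0.35 ± 0.09 SE, adjusted p = 0.0300). Its call was lost without ATO replicate 2 (0.0737) or 3 (0.0524) and without control replicate 1 (0.0823) or 2 (0.0867).

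EIF2S3 (chromosome X, 24054716 to 24077971), the gamma subunit that binds GTP and the initiator tRNA, had the highest level of this group. It stood at 151, 168 and 158 RPKM in ATO libraries and at 139, 152 and 148 RPKM in control libraries, with overlap (0.12 ± 0.06 SE, adjusted p = 0.228). Its near copy EIF2S3L, 98.2% identical over 1419 coding bases, was listed at 0.214 to 0.352 RPKM in ATO libraries and 0.163 to 0.438 RPKM in control libraries and was not tested. EIF2A and EIF2D, which can deliver tRNA to the ribosome without eIF2, had log2 fold changes of -0.0077 ± 0.071 SE and -0.022 ± 0.080 SE (adjusted p = 0.947 and 0.866).

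All 5 genes of eIF2B, the exchange factor that reloads eIF2 with GTP, had every ATO library below every control library, as had 22.6% of all tested genes. Of the 5, 3 passed the test (EIF2B1, EIF2B4 and EIF2B5), where 13.4% of all tested genes were called lower. EIF2B5 (chromosome 3, 184135038 to 184146112), the catalytic epsilon subunit, stood at 17.4, 16.4 and 13.9 RPKM in ATO libraries and at 21.98, 22.06 and 21.98 RPKM in control libraries. The controls were nearly alike and the ATO libraries spread below them (log2 fold change -0.45 ± 0.09 SE, by limma-trend, adjusted p = 0.0109). EIF2B1 (chromosome 12, 123620406 to 123633766), the alpha subunit at the regulatory core that senses phosphorylated eIF2, stood at 50.3, 45.0 and 45.7 RPKM after ATO and at 58.6, 55.8 and 57.0 RPKM in controls. It was 0.822 of the control mean (-0.28 ± 0.06 SE, adjusted p = 0.0162), and the call was lost without ATO replicate 2 (0.0529) or control replicate 3 (0.0522). EIF2B4 (chromosome 2, 27364352 to 27370486), the delta subunit, stood at 11.1, 10.1 and 8.21 RPKM after ATO and at 12.8, 13.1 and 12.5 RPKM in controls. This call was marginal (-0.36 ± 0.11 SE, adjusted p = 0.0484) and was lost without any 1 library other than ATO replicate 1 (0.0699 to 0.125).

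The remaining subunits of eIF2B did not pass. EIF2B2, the beta subunit, averaged 7.42 ± 0.318 RPKM after ATO and 8.77 ± 0.465 RPKM in controls (SD, n = 3 each), with a log2 fold change of -0.21 ± 0.08 SE (by limma-trend, adjusted p = 0.0952). EIF2B3, the gamma subunit that partners the catalytic one, averaged 16.1 ± 1.26 RPKM after ATO and 18.4 ± 0.421 RPKM in controls (-0.18 ± 0.07 SE, adjusted p = 0.107). Summed over the 5 genes, eIF2B stood at 102, 96.5 and 89.7 RPKM in ATO libraries and at 119.6, 119 and 119 RPKM in control libraries. Other annotated genes cover 15.6% of the exon bases of EIF2B1 and 23.6% of those of EIF2B2, and because the library kit keeps no strand, reads of overlapping or antisense genes cannot be told apart.

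eIF3, the largest factor, moved in both directions. Of its 14 genes, 3 were called higher, 2 lower and 9 were not called, and the median log2 fold change was -0.025. The called genes are 35.7% of the 14, against 25.4% of all tested genes and 31.0% of protein-coding genes. EIF3B (chromosome 7, 2354086 to 2380745), a scaffold subunit, stood at 64.3, 60.5 and 61.2 RPKM in ATO libraries and at 82.3, 77.2 and 77.1 RPKM in control libraries. The groups lay far apart (log2 fold change -0.34 ± 0.05 SE, by limma-trend, adjusted p = 0.00551). EIF3A (chromosome 10, 119033670 to 119080823), the largest subunit and the gene of highest mean over the 6 libraries in the complex (after ATO alone EIF3I averaged more, 112 RPKM), stood at 108, 118 and 105 RPKM after ATO and at 132, 122.6 and 131 RPKM in controls. Its call was marginal (-0.21 ± 0.06 SE, adjusted p = 0.0453) and was lost without any 1 library other than ATO replicate 2 (0.0693 to 0.123).

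The genes of eIF3 that rose include a duplicated pair. EIF3CL (chromosome 16, 28379579 to 28403879) stood at 42.0, 40.6 and 42.6 RPKM in ATO libraries and at 32.4, 29.7 and 34.1 RPKM in control libraries (log2 fold change 0.37 ± 0.06 SE, by limma-trend, adjusted p = 0.0078). The groups did not overlap, and the call was lost only without both libraries that stood apart (0.0507). EIF3C (chromosome 16, 28688558 to 28735730), a core subunit that contacts eIF1 and eIF5, stood at 9.22, 10.2 and 10.5 RPKM after ATO and at 7.96, 6.20 and 7.99 RPKM in controls (0.39 ± 0.11 SE, adjusted p = 0.0428). Leaving out any 1 library ended that call (0.0589 to 0.110). The principal coding sequences of the pair are identical over all 2742 aligned bases, so the division of reads between EIF3C and EIF3CL is uncertain. Their calls may therefore not be separate in the counts of genes called higher. EIF3F (chromosome 11, 7970251 to 8001862) stood at 22.3, 21.4 and 22.8 RPKM after ATO and at 19.3, 18.2 and 19.3 RPKM in controls. It too was lost without any 1 library (0.22 ± 0.06 SE, adjusted p = 0.0365, and 0.0598 to 0.116 with a library left out).

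Among the other 9 eIF3 genes the log2 fold changes ran between -0.11 and 0.15, with adjusted p between 0.148 and 0.939. EIF3L and EIF3E had means above the controls and groups that did not overlap (0.15 ± 0.07 SE and 0.13 ± 0.06 SE), as had EIF3M below them (-0.11 ± 0.06 SE). EIF3D, a subunit that can itself bind the cap, EIF3G, EIF3H, EIF3I, the loosely bound EIF3J and EIF3K had overlapping groups. EIF3L shares 51.8% of its exon bases with other annotated genes.

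**Figure D3:**
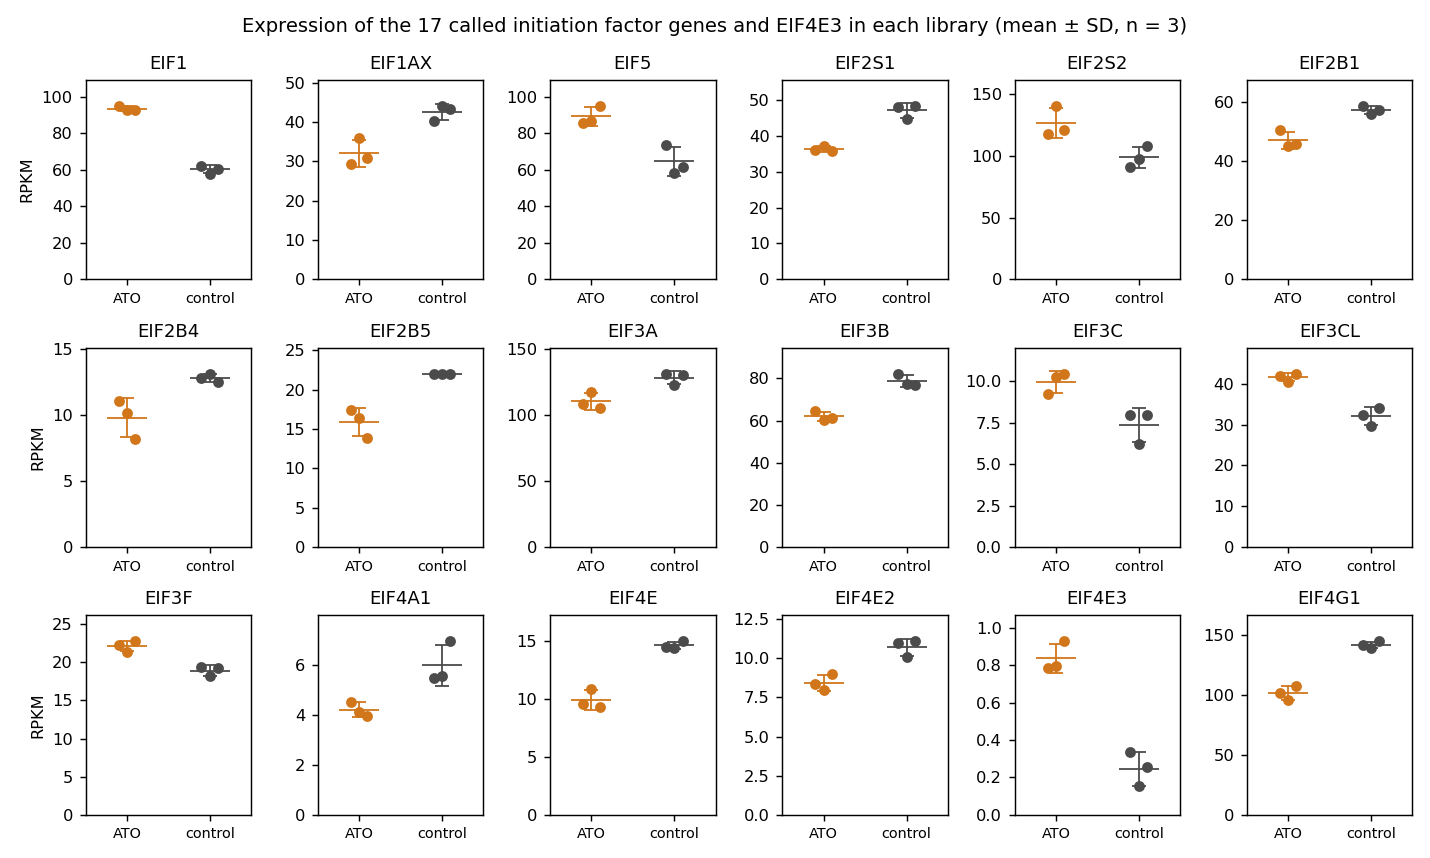
RPKM in each library (y axis, from 0) of the 17 called genes and EIF4E3, with ATO left and control right. Dots are libraries, and bars are the mean ± SD (n = 3). In each of the 18 genes the ATO and control libraries do not overlap, with EIF1 at 92.6 to 95.1 RPKM after ATO and 57.9 to 62.3 RPKM in controls. The 17 were picked by a test on these same values, and 44.6% of all tested genes do not overlap either.

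In the cap-binding complex, EIF4E and EIF4G1 were lower under every setting tried. Of the 10 tested genes of eIF4F and its cofactors, 4 were called lower (40%), 0 higher and 6 were not called. Over all tested genes 13.4% were called lower and 25.4% in either direction. At an unadjusted p under 0.05 by limma-trend the count of higher genes in this group was also 0. Limma-voom on recovered reads likewise called 0 genes of the group higher. For these settings the shares of all tested genes are not given here. EIF4G1 (chromosome 3, 184314495 to 184335358), the scaffold that ties the cap-binding protein to eIF3, stood at 102, 96.1 and 107 RPKM in ATO libraries and at 142, 139 and 145 RPKM in control libraries. All 3 ATO libraries lay far below the controls, and the adjusted p was the smallest of the 11 genes that fell (log2 fold change -0.48 ± 0.06 SE, by limma-trend, adjusted p = 0.00239). EIF4E (chromosome 4, 98871684 to 98930637), the cap-binding protein, stood at 9.55, 10.9 and 9.35 RPKM after ATO and at 14.5, 14.4 and 14.99 RPKM in controls. Its level was 0.678 of the control mean (-0.52 ± 0.08 SE, adjusted p = 0.00465).

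EIF4E2 (chromosome 2, 232550052 to 232583644), a relative of eIF4E that acts mainly in repression, stood at 8.36, 7.98 and 8.99 RPKM after ATO and at 10.95, 10.1 and 11.1 RPKM in controls (log2 fold change -0.31 ± 0.08 SE, by limma-trend, adjusted p = 0.0308). The call was lost without any 1 library other than ATO replicate 3 (0.0519 to 0.103). Of the EIF4E2 exon bases, 24.2% are shared with other annotated genes, mainly an antisense gene, and the libraries keep no strand. EIF4A1 (chromosome 17, 7572706 to 7579005), the main helicase, stood at 4.54, 4.13 and 3.98 RPKM after ATO and at 5.48, 5.55 and 6.96 RPKM in controls (-0.42 ± 0.12 SE, adjusted p = 0.0417). Leaving out any 1 library ended the call (0.0600 to 0.124). Other annotated genes, mainly a transcript on the same strand, cover 48.6% of the exon bases of EIF4A1, so its level is uncertain. EIF4E3, the third cap-binding relative, lay below the level required for the test, at 0.786, 0.797 and 0.929 RPKM after ATO and at 0.335, 0.153 and 0.254 RPKM in controls. Its groups did not overlap (0.837 ± 0.0793 RPKM after ATO and 0.248 ± 0.0911 RPKM in controls, SD, n = 3 each), a 3.38-fold ratio of means. By limma-trend without the filter its log2 fold change was 0.56 ± 0.09 SE (adjusted p = 0.00723), on the scale with 1 RPKM added. With limma-voom on recovered reads and no filter, a choice made after its values were seen, EIF4E3 had a log2 fold change of 1.81 ± 0.25 SE (adjusted p = 0.000133), opposite in sign to EIF4E and EIF4E2.

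The cofactors of eIF4F showed no call. EIF4H, which stimulates the helicase and had the highest mean over the 6 libraries of all 47 genes, though not after ATO, where EIF2S3 averaged more, stood at 154, 156 and 152 RPKM in ATO libraries and at 158, 151 and 153 RPKM in control libraries. The groups overlapped and the fitted difference was close to 0 (0.0020 ± 0.049 SE, by limma-trend, adjusted p = 0.981). EIF4G2, the scaffold relative that does not bind eIF4E, averaged 139 ± 5.39 RPKM after ATO and 139 ± 2.59 RPKM in controls (SD, n = 3 each; -0.0039 ± 0.053 SE, adjusted p = 0.965). EIF4B, the other helicase cofactor, EIF4A2, the second helicase, EIF4G3 and EIF4ENIF1, which carries eIF4E into the nucleus, had log2 fold changes of 0.076, -0.047, -0.12 and -0.085 (adjusted p between 0.219 and 0.753).

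EIF4G1 and EIF4E were also the called genes with a pair of E-boxes before their start, the sequence CACGTG that factors such as MYC and USF bind. Their upstream 250 bases, from RefSeq (GRCh38.p14) and 5′ to 3′ on the gene's strand, are shown for that reason, with the E-boxes in capitals. The EIF4G1 window is chr3:184314356-184314605 on the plus strand and the EIF4E window is chr4:98929134-98929383 on the minus strand:
EIF4G1: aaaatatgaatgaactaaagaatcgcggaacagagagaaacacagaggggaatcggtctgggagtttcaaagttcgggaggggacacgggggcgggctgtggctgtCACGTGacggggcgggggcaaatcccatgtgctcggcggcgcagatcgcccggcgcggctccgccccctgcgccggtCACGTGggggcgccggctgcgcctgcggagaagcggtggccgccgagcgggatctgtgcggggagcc
EIF4E: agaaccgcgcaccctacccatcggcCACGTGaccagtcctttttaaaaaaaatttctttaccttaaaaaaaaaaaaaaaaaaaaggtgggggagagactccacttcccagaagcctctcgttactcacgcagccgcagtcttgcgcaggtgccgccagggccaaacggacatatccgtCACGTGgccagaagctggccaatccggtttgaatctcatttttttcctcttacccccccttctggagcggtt
The sites start at -144 and -67 in EIF4G1 and at -225 and -72 in EIF4E, counted from the base before the RefSeq start as -1. CACGTG reads the same on both strands. Promoter windows of 300 bases, 250 before the start to 50 after it, matched 39 of the 47 genes by symbol, and 10 of them (25.6%) hold an E-box, as do 8.77% of all 27305 genes with a window and 12.2% of the listed genes. Of the 10 genes, 2 were called lower (EIF4E and EIF4G1), 1 higher (EIF3F) and 7 not called, among them EIF4H, EIF4B, EIF1B, EIF4A3 and EIF5A2. Among the 27 tested genes with a window and no E-box, 3 were called higher and 8 lower. The median log2 fold change was -0.033 with an E-box and -0.086 without, a difference that was not tested. EIF4G1 has 3 windows, and only the window shown holds E-boxes. How many of all genes hold 2 E-boxes is not given here. EIF5A2 also holds 2 E-boxes, at -187 and -162, and had a log2 fold change of 0.13 ± 0.21 SE (by limma-trend, adjusted p = 0.688). Over all tested genes 25.4% were called. A match is a description of the letters and shows no binding. The motif TGACNNNGC of antioxidant response elements, searched on both strands, was in 10 of the 39 genes (25.6%), in 16.1% of all genes and in 19.1% of the listed genes, and it overlaps the E-box at -144 of EIF4G1. Of these 10, EIF5 was called higher and EIF1AX, EIF2B1 and EIF4G1 lower. The ATF4-type motif TGATGNAA, on both strands, was in 1 of the 39 (EIF4E3, 2.56%), in 4.46% of all genes and in 2.96% of the listed genes.

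A further 9 of the 39 genes have a RefSeq start that begins with C and 4 pyrimidines, as the terminal oligopyrimidine messages whose translation follows mTOR do. They are EIF2A, EIF2D, EIF2S3, EIF3D, EIF3F, EIF3K, EIF3M, EIF4A2 and EIF4B (23.1%, against 5.14% of all genes and 7.05% of the listed genes). The first 15 bases of EIF3F, which was called, and of the 3 others with the highest level are shown (RefSeq, GRCh38.p14, 5′ to 3′ on the gene's strand), with the first 5 in capitals. They lie at chr11:7987337-7987351 (plus), chrX:24054956-24054970 (plus), chr12:53006456-53006470 (plus) and chr22:36529152-36529166 (minus) in the order shown:
EIF3F: CTTCTttctcgacaa
EIF2S3: CTCTTttggcaacat
EIF4B: CTTTTgcgttctctt
EIF3D: CTCTTttcctggttt
Of these 9 genes 1 was called higher and 0 lower (12.0% and 13.4% over all tested genes). Their log2 fold changes lay between -0.11 and 0.22. Among the other 28 tested genes with a window, 3 were called higher and 10 lower, with log2 fold changes between -0.52 and 0.63. A difference between these gene groups was not tested.

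The factors of subunit joining and of elongation, and eIF4A3, gave 0 calls among 5 tested genes by limma-trend (25.4% over all tested genes). At an unadjusted p under 0.05 the count was 2 (EIF5B and EIF4A3), both lower, and limma-voom on recovered reads called these 2. The shares of all tested genes at these settings are not given here, and the 25.4% does not apply to them. EIF5B, the GTPase that joins the large subunit, stood at 27.8, 29.1 and 26.6 RPKM in ATO libraries and at 31.6, 32.5 and 39.3 RPKM in control libraries, without overlap (log2 fold change -0.29 ± 0.09 SE, by limma-trend, adjusted p = 0.054). EIF4A3, a relative of the helicases that belongs to the exon junction complex and has no main role in initiation, stood at 20.7, 18.6 and 22.8 RPKM after ATO and at 29.01, 24.4 and 24.4 RPKM in controls. It missed the test (-0.31 ± 0.10 SE, adjusted p = 0.0605) and was called without ATO replicate 3 (0.0474).

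EIF5A, which despite its name helps elongation past difficult stretches, had the highest level of the joining group. It stood at 77.6, 73.3 and 66.6 RPKM in ATO libraries and at 77.6, 78.3 and 83.1 RPKM in control libraries. The groups met at ATO and control replicate 1 without crossing, and the test was missed (log2 fold change -0.14 ± 0.07 SE, by limma-trend, adjusted p = 0.189). Its paralog EIF5A2 averaged 3.18 ± 0.926 RPKM after ATO and 2.81 ± 0.802 RPKM in controls (SD, n = 3 each; 0.13 ± 0.21 SE, adjusted p = 0.688). EIF5AL1, 98.9% identical to EIF5A over 465 coding bases, was listed at 0.307 to 0.332 RPKM after ATO and 0.334 to 0.43 RPKM in controls and was not tested. EIF6, which keeps the large subunit from joining too early, averaged 45.9 ± 3.70 RPKM after ATO and 41.4 ± 3.01 RPKM in controls (0.15 ± 0.08 SE, adjusted p = 0.221).

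Summed by group, the start codon factors stood at 259, 264.2 and 269.5 RPKM in ATO libraries and at 221, 203 and 209 RPKM in control libraries, 25.5% higher by the means. The eIF4F group stood at 610.0, 632 and 616 RPKM after ATO and at 664, 662 and 670.2 RPKM in controls, and its mean fell by 6.94%. For eIF2B the mean of the sums fell by 19.3%. The sums of eIF3 were 802, 809.7 and 789 RPKM after ATO and 849, 812 and 813 RPKM in controls, and none of the ATO libraries reached the lowest control library. The sums of the eIF2 group were 353, 394 and 359 RPKM after ATO and 327, 340.0 and 352 RPKM in controls, which do not overlap by a narrow margin. Those of the joining group overlapped between ATO and control libraries. These sums are descriptions and were not tested, and each is weighted to its most abundant genes.

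**Figure D4:**
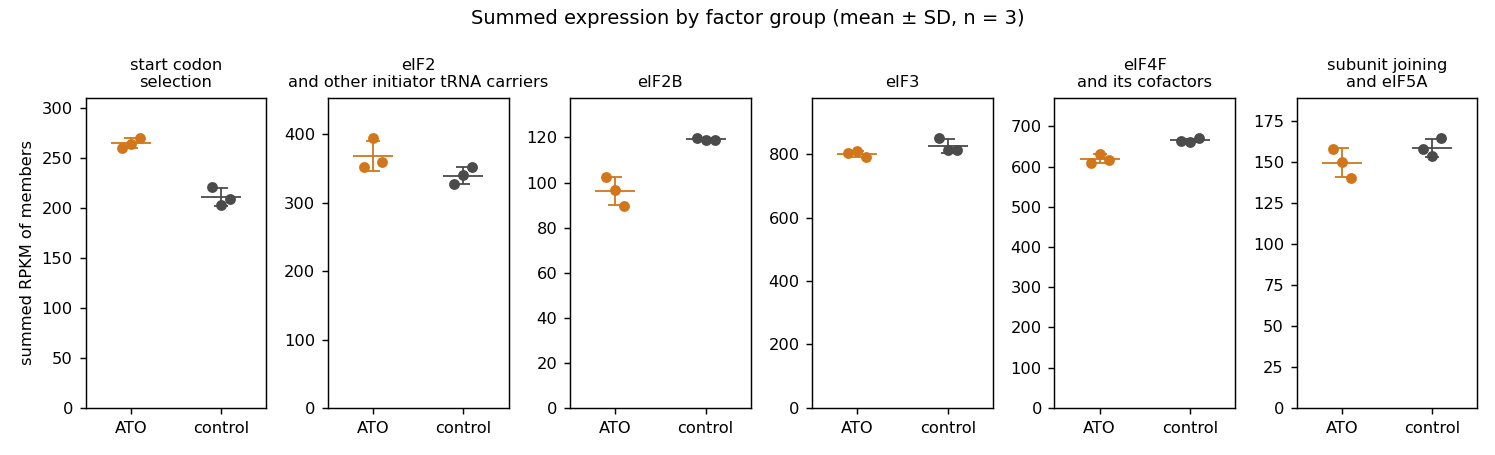
Summed RPKM of the genes of 6 factor groups (y axis, from 0) in each library, ATO left and control right. Dots are libraries and bars the mean ± SD (n = 3). The start codon group lies at 259 to 269.5 RPKM after ATO and 203 to 221 RPKM in controls, and eIF2B at 89.7 to 102 RPKM after ATO and 119 to 119.6 RPKM in controls.

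The share of a gene in the summed level of a pair of related or partner factors was compared over 7 pairs. EIF4G1 made up 42.1, 42.0 and 42.9% of the summed RPKM of EIF4G1 and EIF4G2 in ATO libraries and 50.1, 50.6 and 51.0% in control libraries. The difference was -8.20 percentage points, without overlap (exact two-sided permutation p = 0.1, the smallest that 3 against 3 allows, and 0.233 adjusted over the 7 pairs). Of EIF4G1 and EIF4G3, EIF4G1 held 80.7 ± 1.42% after ATO and 84.2 ± 0.62% in controls (SD, n = 3 each), and of the helicases EIF4A1 and EIF4A2, EIF4A1 held 8.23 ± 1.22% after ATO and 10.9 ± 1.78% in controls. These 2 pairs also did not overlap, with the same exact p of 0.1 and adjusted p of 0.233. The helicase shares are uncertain, since other annotated genes cover 48.6% of the exon bases of EIF4A1 and 17.9% of those of EIF4A2. The shares of EIF1 over EIF1B, EIF4E over EIF4E2, EIF5A over EIF5A2 and EIF4B over EIF4H overlapped between the groups (exact permutation p between 0.3 and 0.6).

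Proteins that act on the initiation factors were read as a separate list. Of 27 tested regulators and partners, 2 rose and 3 fell, where 12.0% of all tested genes were called higher and 13.4% lower. PPP1R15A, the stress-induced subunit of the phosphatase that restores eIF2, averaged 31.7 ± 2.997 RPKM after ATO and 6.75 ± 1.68 RPKM in controls (SD, n = 3 each; log2 fold change 2.097 ± 0.16 SE, by limma-trend, adjusted p = 0.000542). EIF4EBP1, the binding protein that sequesters eIF4E, averaged 145 ± 4.74 RPKM after ATO and 91.9 ± 6.14 RPKM in controls (0.65 ± 0.06 SE, adjusted p = 0.00119), while EIF4EBP2 had a log2 fold change of -0.055 (adjusted p = 0.583). ABCE1, which splits ribosomes for a new round, fell (-0.44 ± 0.05 SE, adjusted p = 0.00239), and so did BZW2, an eIF5 mimic (-0.23, 0.0266). BZW2 was lost without ATO replicate 2 (0.0541) or 3 (0.0581) and without control replicate 2 (0.0843) or 3 (0.0860). CDC123, which assembles eIF2, had an adjusted p of 0.0444 that was lost without any 1 library (0.0619 to 0.140), and, like EIF4EBP2, it is named after its values were seen.

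Of 11 tested genes of elongation and termination, 1 rose and 3 fell. For this list and the mitochondrial one below, the share called over all tested genes was 25.4%. EEF2K, the kinase that inhibits elongation factor 2, averaged 11.9 ± 0.877 RPKM after ATO and 21.3 ± 0.700 RPKM in controls (SD, n = 3 each; log2 fold change -0.80 ± 0.07 SE, by limma-trend, adjusted p = 0.000897). The termination factors GSPT1 (-0.42, adjusted p = 0.00518) and ETF1 (-0.31, 0.00873) fell, and PELO, which rescues stalled ribosomes, rose (0.78 ± 0.14 SE, 0.00965). The mitochondrial translation factors had 1 gene higher and 1 lower among 8 tested, GFM2 (0.53, adjusted p = 0.00255) and TSFM (-0.51, 0.00902). GFM1 (-0.21, 0.0763) and MTIF2, the mitochondrial initiation factor (0.15, 0.185), were not called.

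The authors' deposited table gives an adjusted p under 0.05 to 7 of the 47 genes as higher and 12 as lower, of which 15 were also called here. These counts include the 3 genes not tested here. The share of all genes that passes in the authors' comparison is not given here, so the counts stand without a background. The authors' deposited table lists EIF1B (log2 fold change 0.40, adjusted p = 0.0176), EIF5B (-0.32, 0.0147), EIF4A3 (-0.34, 0.0165) and EIF4E3 (1.73) among them, which were not called or not tested here. For EIF3F and EIF3A, called here, the authors' deposited table has an adjusted p of 0.0806 and 0.0545.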

How the data were processed

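Total RNA depleted of ribosomal RNA was made into libraries that do not mark strand, per the labels' protocols. Tools in the submitters' processing notes are HISAT2 2.1.0, HTSeq and DESeq2, with the build hg38, and no roles are stated, and per the file headers duplicate reads were removed. The authors deposited RPKM, a unit read from the values since the headers do not name it, and their comparison as a mean normalized signal, a log2 fold change with its error, a test score and p-values. 

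The test was limma 3.58.1 in trend mode (R 4.3.3) on log2 of RPKM + 1, over the 16803 genes averaging 1 RPKM or more (7055 set aside), all 6 libraries, treatment as the only term and Benjamini-Hochberg adjustment. The pseudocount shrinks folds of low genes. Reads were recovered with GENCODE 29 exon lengths, settled by the deposited mean where needed: all 6 values were whole within 0.01 reads for 99.9% of genes. They served limma-voom. At this depth 3 reads in 1 kb of exon are 0.133 to 0.155 RPKM, for counting error only.

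The genes, lists, groups and tests were chosen with earlier results of these data known. Values in each library are given for called genes and for the gene of highest level in each complex, and the 4 smallest p-values of each partner list are named. Alternatives were 2 scalings, 2 filters, 2 pseudocounts, limma-voom, the replicate block and leaving out each library or the 2 apart. Start contexts and promoter windows come from GENCODE 29 and RefSeq GRCh38.p14.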

Additional observations from a re-analysis of the deposited data

How the results depend on the processing

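Deviations of same-numbered libraries from their group means correlated at -0.085, 0.15 and -0.083 for replicates 1, 2 and 3. The largest correlation between an ATO and a control library was 0.22, for ATO replicate 3 and control replicate 1. With so few libraries these values cannot exclude a pairing, and the labels state none beyond the number. With the replicate block 3 genes were called higher and 7 lower, so the block removed 7 calls. Counts over all tested genes with the block are not given here, so this loss cannot be set against a background. Leaving out 1 library gave 3 to 4 initiation factor genes higher and 5 to 9 lower, and 1331 to 1525 of all tested genes higher and 1427 to 1908 lower. Without ATO replicate 3 and control replicate 1 together, an alternative added after seeing the data, 3 genes were higher and 5 lower, and 1200 and 1484 of all tested genes. None of the 17 called genes changed sign in the alternatives run. Among the 27 uncalled genes 9 did, all with a fitted change that missed the test. Under median-ratio factors EIF4G2 was at 0.0028. Under upper quartile factors EIF4G2 was at 0.040, EIF2D at 0.018 and EIF2A at 0.035. Over the fits that each left out 1 library, the ranges were -0.15 to 0.0088 for EIF4A2, -0.0068 to 0.12 for EIF4B, -0.035 to 0.060 for EIF3J, -0.012 to 0.020 for EIF4H, -0.025 to 0.028 for EIF4G2, -0.057 to 0.023 for EIF2D, -0.048 to 0.058 for EIF2A and -0.043 to 0.29 for EIF5A2. Without both libraries apart the values were 0.072 for EIF2A, 0.0042 for EIF4A2 and 0.018 for EIF3K. Upper quartile factors moved the median of all genes to 0.033. With 1 library left out, the EIF4G1 share against EIF4G2 differed by -8.50 to -7.98 percentage points.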
